A study of Mus musculus with 5 samples.

Results

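Toll-like receptors (TLRs) and the proteins that carry their signal were measured in mouse embryonic fibroblasts (MEFs) without Dicer after depletion of TARBP2. The 9 genes described are the receptors Tlr2, Tlr3 and Tlr4, the coreceptors Cd14 and Ly96, the adaptors Myd88 and Ticam1, and the kinases Irak1 and Irak4. They were chosen by gene symbol, from a list drawn up when the signals of these 5 arrays and earlier results from them were known. The levels and differences of the 9 genes are therefore a description, and an adjusted p-value given for one of them only places it among all probes tested. Of the 9 genes 8 have a probe in the platform annotation, and these 8 were above background, out of 8928 genes above background on the array in all. Irak4 was matched to no probe.

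Toll-like receptors recognise microbial and damaged-cell molecules at the cell surface or inside endosomes. TLR2 and TLR4 act at the surface, where CD14 and MD-2 (the product of Ly96) help TLR4 to bind lipopolysaccharide, and TLR3 binds double-stranded RNA in endosomes. Most of the receptors signal through MyD88 and the kinases IRAK4 and IRAK1 towards NF-kB, whereas TLR3 signals through TRIF (the product of Ticam1) towards interferon regulatory factors, and TLR4 uses both routes. Fibroblasts are known to express several of these receptors and to answer their ligands with cytokines and chemokines.

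All 5 samples were Dicer-null MEFs of strain C57BL/6, so the controls lack Dicer as well, and total RNA was extracted 48 hours after transfection with Lipofectamine. One array each held cells given siTARBP2-1 and siTARBP2-2, which are different siRNAs against TARBP2, and 3 arrays held cells given siControl-1, siControl-2 or siControl-3. The design text of the series calls the cells metastatic and the controls mock-transfected, where the sample labels give MEFs and siControl. Whether the line is 1 clone, and whether the arrays come from separate cultures, is not stated by the sources, so p-values measure only the spread between these arrays, which may be technical. Each siRNA is 1 array, so a difference between the siRNAs cannot be told apart from a difference between the transfected cultures, and values given "with" an siRNA are those of its array.

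The targeted gene was lower on both knockdown arrays: the Tarbp2 probe ILMN_2939990 was at 28.7% of the control mean with siTARBP2-1 and at 20.4% with siTARBP2-2. The other Tarbp2 probe, ILMN_2649955, was at 37.6% with siTARBP2-1 and at 20.9% with siTARBP2-2. The 1 probe of Dicer1 was not above background on any of the 5 arrays. Of the fibroblast markers 6 of 8 were above background, and Thy1 and Lum were not. Raw signals were summed over every probe of the listed genes, above background or not, so sums can be compared between arrays but not between cell types. The fibroblast sums were 2604 on the siTARBP2-1 array, 3231 on the siTARBP2-2 array and 3366 to 3823 in the controls. Most of the gap in the sum lay in Col1a1, called lower with both siRNAs (log2 differences -0.65 and -0.55; limma, adjusted p = 0.0214 and 0.0491). Col3a1 and Pdgfra were called lower with siTARBP2-1 (-0.59 and -0.79; limma, adjusted p = 0.0245 and 0.0211) and had uncalled log2 differences of 0.13 and 0.32 with siTARBP2-2, and Dcn had uncalled positive differences with both. The part of these markers in the differences below was not tested. Markers of macrophages and other leukocytes, cells known for high levels of Toll-like receptors, were above background for 0 of the 6 genes with a probe, and their summed raw signals ran from 554 to 592 over the 5 arrays. Endothelial markers were kept for 0 of 4 genes, with sums of 325 to 356, and epithelial markers for 3 of 3, with sums of 252 to 305. The highest epithelial sum is that of siTARBP2-2, where Krt18 had a log2 difference of 1.08 that was not called. Cdh1 and Krt8 were each above background on only 2 arrays and lay close to it on all. Cdh1 passed the filter through siControl-1 and siControl-2 alone, so its position below the controls with both siRNAs is not read as a change. In a bulk sample, fewer cells that express a gene and less RNA of it per cell cannot be told apart.

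Signals are background-corrected, quantile-normalized log2 values, and differences are on the same log2 scale. A gene is called when limma's p-value, adjusted over all kept probes, is under 0.05. Over both TARBP2 siRNAs against control, 0 of the 8 measured genes were called by limma and 0 had an unadjusted p under 0.05, where 0.0112% of all genes were called and 12.9% had such a p. With siTARBP2-1 against control 3 of 8 were called, Tlr3 and Myd88 higher and Irak1 lower, and 7.65% of all genes were called in either direction. With siTARBP2-2 against control 1 of 8 was called, Tlr3, which was lower, where the share over all genes was 4.27%. Between the 2 TARBP2 siRNAs, 3 of 8 were called, Tlr3, Cd14 and Irak1, where the share over all genes was 7.06%. The median log2 difference of the 8 genes was 0.07 with siTARBP2-1 and 0.07 with siTARBP2-2, beside -0.01 and 0.02 over all genes.

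**Figure D1:**
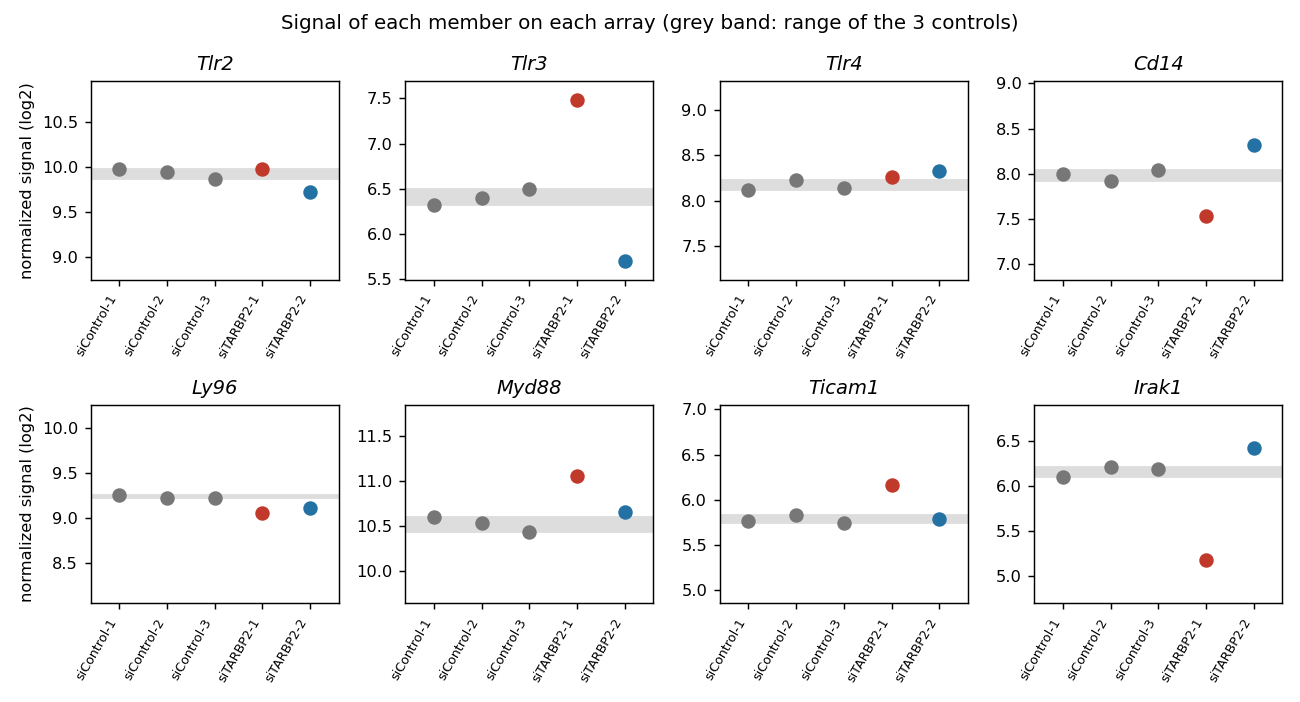
Normalized log2 signal of the 8 measured genes on each of the 5 arrays; every panel spans the same number of log2 units, and the grey band is the range of the 3 control arrays. Tlr3 lies at 7.48 with siTARBP2-1 and 5.70 with siTARBP2-2 on either side of the controls, Irak1 lies at 5.18 below them with siTARBP2-1, and Tlr2, Tlr4 and Ly96 stay near them.

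The siTARBP2-1 array lay outside the range of the 3 controls for 7 of the 8 genes, all but Tlr2, where 68.5% of all genes did so. The siTARBP2-2 array lay outside that range for 7 of 8, all but Ticam1, beside 69% of all genes. Both knockdown arrays lay on the same side of all 3 controls for 3 of 8, with Tlr4 and Myd88 above and Ly96 below, beside 31.3% of all genes.

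Tlr3, the endosomal receptor for double-stranded RNA, differed most between the siRNAs among the 8 genes. Its probe ILMN_2697002 read 6.32, 6.40 and 6.49 (log2 signal) in the controls, 7.48 after siTARBP2-1 and 5.70 after siTARBP2-2. The siTARBP2-1 array was the highest and the siTARBP2-2 array the lowest of the 5, and neither overlapped the controls. Tlr3 rose 2.11-fold with siTARBP2-1 (log2 difference 1.08, SE 0.12, n = 1 and 3; limma, adjusted p = 0.00524). With siTARBP2-2 it fell to 61.6% of control (log2 difference -0.70, SE 0.12; limma, adjusted p = 0.0343). The difference between the siRNAs, siTARBP2-1 minus siTARBP2-2, was 1.78 (95% interval 1.43 to 2.13; limma, adjusted p = 0.00256). Over both arrays, which lay on opposite sides of the controls, the log2 difference was 0.19 (SE 0.44). The call with siTARBP2-2 ended without siControl-2 (limma, adjusted p = 0.114), without siControl-3 (0.0529) and with no filter on dim probes (0.0601). Without background correction the log2 differences of Tlr3 were 0.75 with siTARBP2-1, -0.39 with siTARBP2-2 and 1.15 between the siRNAs.

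The Tlr3 promoter is shown because Tlr3 was called on both knockdown arrays, and it is set beside those of Myd88 and Irak1, the other genes called with siTARBP2-1. The sequences are the 250 bases before the gene start in RefSeq for build GRCm38.p6, 5′ to 3′ on the gene's strand, which is the minus strand for all 3, at chr8:45410381-45410630, chr9:119340019-119340268 and chrX:74023922-74024171. Capitals mark matches, on either strand, to 3 motifs: the interferon-stimulated response element (GAAA, then NN, then GAAA again, with N any base), the gamma-activated sequence (TTCNNNGAA) and the NF-kB consensus.
Tlr3: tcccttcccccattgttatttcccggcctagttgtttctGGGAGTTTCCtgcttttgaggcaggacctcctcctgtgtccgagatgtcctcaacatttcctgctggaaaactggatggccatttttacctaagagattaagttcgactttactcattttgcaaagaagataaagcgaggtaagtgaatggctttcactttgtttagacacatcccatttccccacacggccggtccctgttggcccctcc
Myd88: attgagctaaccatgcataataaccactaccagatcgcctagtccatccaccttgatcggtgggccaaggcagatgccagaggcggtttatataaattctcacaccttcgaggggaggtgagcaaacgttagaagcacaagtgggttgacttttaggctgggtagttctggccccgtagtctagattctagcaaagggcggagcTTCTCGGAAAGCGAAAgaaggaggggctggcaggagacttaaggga
Irak1: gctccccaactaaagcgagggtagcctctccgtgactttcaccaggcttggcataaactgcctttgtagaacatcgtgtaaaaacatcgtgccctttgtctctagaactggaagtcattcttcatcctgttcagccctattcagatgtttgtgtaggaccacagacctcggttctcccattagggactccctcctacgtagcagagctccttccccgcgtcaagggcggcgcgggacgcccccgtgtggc

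The Tlr3 window held 1 match, to the NF-kB consensus, and none to either interferon motif. The Myd88 window held a gamma-activated sequence and an interferon-stimulated response element that overlap each other, the latter from 40 to 31 bases before the gene start. The Irak1 window held no match. Of 32851 promoter windows of this length, 2.98% held the interferon-stimulated response element, 7.02% the gamma-activated sequence and 3.9% the NF-kB consensus. Among the other genes with an entry, Tlr2 held 2 overlapping matches to the NF-kB consensus, and Ticam1 and Irak4 held none; Tlr4, Cd14 and Ly96 are not shown. A match describes these letters only. Near matches were not searched, so a window without a match may still hold a similar element.

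Tlr2 and Tlr4, the surface receptors for bacterial lipopeptides and lipopolysaccharide, were not called in any comparison. Tlr2 had log2 signals of 9.98, 9.94 and 9.87 in the controls, 9.98 with siTARBP2-1 and 9.73 with siTARBP2-2. Only the siTARBP2-2 array lay below the controls, with a log2 difference of -0.20 (95% interval -0.47 to 0.06), and with siTARBP2-1 the difference was 0.05 (-0.22 to 0.31). Tlr4 was represented by probe ILMN_2752966, with 8.12, 8.23 and 8.14 in the controls, 8.26 with siTARBP2-1 and 8.32 with siTARBP2-2. Both knockdown arrays lay just above the controls, and the intervals of the log2 difference ran from -0.17 to 0.36 with siTARBP2-1 and from -0.11 to 0.43 with siTARBP2-2. With median scaling in place of quantile normalization, which moved the median of all genes by -0.11 for siTARBP2-1, the differences with that siRNA were -0.07 for Tlr2 and -0.04 for Tlr4. The other Tlr4 probe, ILMN_2690004, was not above background on any array, with raw signals of 62.0 to 76.9 against 324.7 to 385.2 for ILMN_2752966, so it carried no information on the direction.

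Cd14 and Ly96, the lipopolysaccharide coreceptors, behaved differently from each other. Cd14 had log2 signals of 8.00, 7.92 and 8.04 in the controls, 7.53 with siTARBP2-1 and 8.32 with siTARBP2-2. The siTARBP2-1 array was the lowest and the siTARBP2-2 array the highest of the 5, the reverse of the order for Tlr3. Against control neither difference passed the test, with log2 values of -0.46 with siTARBP2-1 (SE 0.11; limma, adjusted p = 0.0602) and 0.33 with siTARBP2-2 (limma, adjusted p = 0.151). The difference between the siRNAs, siTARBP2-1 minus siTARBP2-2, was -0.79 (95% interval -1.12 to -0.46; limma, adjusted p = 0.0233), and that call ended without siControl-2 (0.058). Ly96 had 9.26, 9.22 and 9.23 in the controls, 9.05 with siTARBP2-1 and 9.11 with siTARBP2-2. Both knockdown arrays lay below the narrow control range, by log2 differences of -0.18 (95% interval -0.44 to 0.08) and -0.13 (-0.38 to 0.13), and neither was called. Tlr4 and Ly96, whose products form the lipopolysaccharide receptor complex, thus had no called difference with either siRNA.

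Myd88, the adaptor of most Toll-like and interleukin-1 family receptors, was higher with siTARBP2-1. Its probe ILMN_2971767 had log2 signals of 10.61, 10.54 and 10.43 in the controls, 11.06 with siTARBP2-1 and 10.66 with siTARBP2-2. Both knockdown arrays lay above all 3 controls, siTARBP2-2 by less than the controls differed among themselves. Myd88 rose 1.44-fold with siTARBP2-1 (log2 difference 0.53, SE 0.12; limma, adjusted p = 0.0467). With siTARBP2-2 the log2 difference was 0.13 (95% interval -0.15 to 0.41). The difference between the siRNAs of 0.40 did not pass the test (limma, adjusted p = 0.151), so an effect confined to siTARBP2-1 was not shown. The call with siTARBP2-1 ended without siControl-2 (limma, adjusted p = 0.134), without siControl-3 (0.0871), under median scaling (0.149) and when dim probes were kept (0.07).

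Ticam1 encodes TRIF, the adaptor of TLR3 and of the endosomal branch of TLR4. Probe ILMN_1220387 had log2 signals of 5.77, 5.83 and 5.75 in the controls, 6.16 with siTARBP2-1 and 5.79 with siTARBP2-2. The siTARBP2-1 array stood above the other 4, which overlapped, with a log2 difference from control of 0.38 that did not pass the test (SE 0.11; limma, adjusted p = 0.0948). The difference with siTARBP2-2 was 0.01 (95% interval -0.25 to 0.27). The other Ticam1 probe, ILMN_1256875, was not above background on any array.

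Irak1, the kinase that the MyD88 complex activates, was lower with siTARBP2-1. Its probe ILMN_2615766 had log2 signals of 6.10, 6.21 and 6.19 in the controls, 5.18 with siTARBP2-1 and 6.41 with siTARBP2-2. The siTARBP2-1 array lay far below the other 4 and the siTARBP2-2 array just above the controls. Irak1 fell to 50.7% of control with siTARBP2-1 (log2 difference -0.98, SE 0.11; limma, adjusted p = 0.00548). With siTARBP2-2 the log2 difference of 0.25 was not called (95% interval -0.02 to 0.52). The siRNAs differed by -1.23, siTARBP2-1 minus siTARBP2-2 (limma, adjusted p = 0.00634). The raw signals of the probe were 123.7, 129.7 and 122.9 in the controls, 138.5 with siTARBP2-2 and 87.6 with siTARBP2-1, where the detection p was 0.00627, so the low value lay close to background. The size of the change therefore rests on the background correction, and without it the log2 difference with siTARBP2-1 was -0.49 (limma, adjusted p = 0.00452). Myd88 and Irak1, whose products act in one signalling complex, were thus called in opposite directions on the same array, although the Myd88 call ended under several alternatives.

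**Figure D2:**
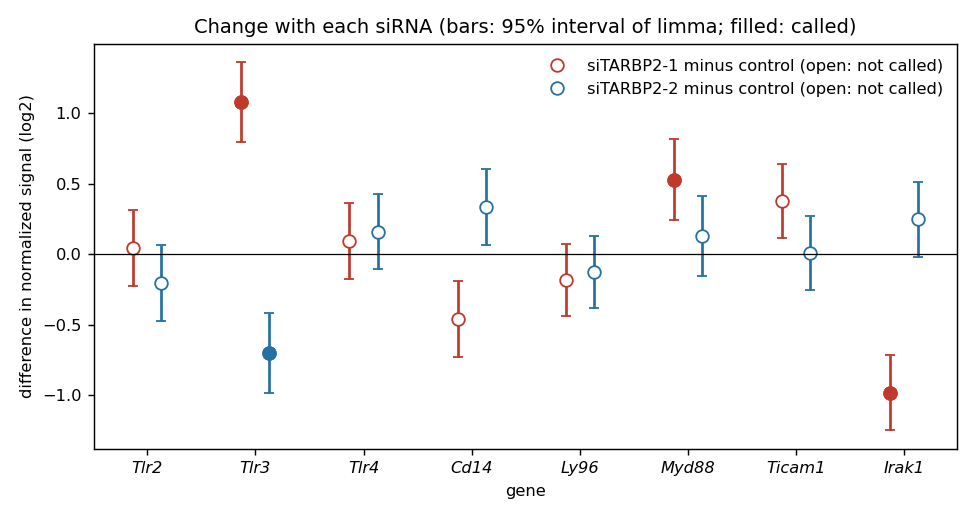
Log2 difference of each of the 8 genes from the control mean with siTARBP2-1 (red) and siTARBP2-2 (blue); bars are limma's 95% intervals, filled points were called and open points were not. Tlr3 is called on both sides of 0, at 1.08 and -0.70, and Irak1 at -0.98 and Myd88 at 0.53 are called with siTARBP2-1.

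In the authors' deposited table, which gives 1 log2 fold change per RefSeq accession, Myd88 had 0.32 and Tlr3 0.14, and both were marked as up-regulated. That mark was given to 2 of the 9 genes, beside 8.67% of the 18744 accessions in the authors' deposited table, where the lowest value that carries it is 0.10. The authors' deposited table gives 0.03 for Irak4, -0.09 for Irak1, -0.13 for Ly96, -0.07 for Tlr2, -0.03 for Cd14, 0.04 for Tlr4 and 0.03 for Ticam1. Its file states no direction; its value of -1.19 for Tarbp2, and a Spearman correlation of 0.931 across 8641 genes with the differences computed here, place knockdown first. Tlr3, marked as up-regulated there, was higher than control on the siTARBP2-1 array and lower on the siTARBP2-2 array.

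The rest of the receptor family was mostly below detection. Of 9 other Toll-like receptors 7 had a probe, and Tlr1, Tlr7, Tlr8, Tlr11, Tlr12 and Tlr13 were not above background; Tlr5 and Tlr9 were matched to no probe and are not analysed here. Tlr6, the partner of TLR2 in binding diacylated lipopeptides, had log2 signals of 6.91, 6.86 and 7.07 in the controls, 6.63 with siTARBP2-1 and 6.40 with siTARBP2-2. Both knockdown arrays lay below the controls, and neither log2 difference passed the test, at -0.32 with siTARBP2-1 (limma, adjusted p = 0.181) and -0.54 with siTARBP2-2 (limma, adjusted p = 0.0646).

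Other genes of the pathway were taken in 10 lists of 68 genes. All these lists were drawn up with earlier results of these data known, so their counts beside those of all genes are a description. Of these 60 had a probe, and Traf3, Ube2v1, Ripk1, Chuk, Nfkb1, Il1rl1, Tlr5 and Tlr9 were matched to none. Of the 60 genes 39 were above background. With siTARBP2-1 against control 9 of these 39 rose and 0 fell by limma, where 346 of all 8928 genes rose and 337 fell (7.65% in all). With siTARBP2-2 1 of the 39 rose and 2 fell, where 156 of all genes rose and 225 fell (4.27%). Over both siRNAs limma called 0 of the 39, and 7 (17.9%) had an unadjusted p under 0.05, beside 1 gene called and 12.9% at that unadjusted p over all genes. The median log2 difference of the 39 was 0.10 with siTARBP2-1 and 0.00 with siTARBP2-2, beside the -0.01 and 0.02 of all genes. With siTARBP2-1 limma called 0 genes in 5 of the lists, those of other receptors, other adaptors, kinases with the TAK1 complex, negative regulators and IL-1 family receptors. These lists, put together here because none of their genes was called, held 17 genes, of which 5 had an unadjusted p under 0.05, a p that 24.7% of all genes reached.

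Unc93b1, the chaperone that carries endosomal Toll-like receptors such as TLR3 out of the endoplasmic reticulum, was called with both siRNAs. Its probe ILMN_2795078 had log2 signals of 7.15, 7.35 and 7.22 in the controls, 8.03 with siTARBP2-1 and 6.63 with siTARBP2-2. As for Tlr3, siTARBP2-1 was the highest of the 5 arrays and siTARBP2-2 the lowest. Unc93b1 rose 1.73-fold with siTARBP2-1 (limma, adjusted p = 0.0148) and fell to 65.5% of control with siTARBP2-2 (limma, adjusted p = 0.0468), and the siRNAs differed by 1.40 (limma, adjusted p = 0.00589). The call with siTARBP2-2 ended without siControl-2 (limma, adjusted p = 0.144), without siControl-3 (0.0683) and when dim probes were kept (0.078). The other Unc93b1 probe, ILMN_2460653, was above background on the siTARBP2-1 array alone and was not tested. Its log2 signals of 5.07 with siTARBP2-1 and 4.83 with siTARBP2-2 both lay above the controls (highest 4.62). This dim probe was at background in all 3 controls, so it could not have shown a lower value with siTARBP2-2. The chaperones Hsp90b1 and Cnpy3, which fold Toll-like receptors, had log2 differences of -0.05 and -0.39 with siTARBP2-1 and of -0.11 and -0.27 with siTARBP2-2, and none was called.

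Genes known to answer the TRIF branch, listed with earlier results of these data known, were higher with siTARBP2-1 where above background. All 3 of the 5 listed that were above background rose, where 7.65% of all genes were called in either direction. The chemokine Cxcl10 rose 4.90-fold (limma, adjusted p = 0.000965), the ubiquitin-like Isg15 2.81-fold (0.00237) and the chemokine Ccl5 2.48-fold (0.00225). With siTARBP2-2 Ccl5 fell to 62.8% of control (limma, adjusted p = 0.0343), a call that ended without siControl-2 (0.0966), without siControl-3 (0.0557) and when dim probes were kept (0.0584), and Cxcl10 and Isg15 had log2 differences of -0.47 and -0.54 that were not called. Without background correction both were called with siTARBP2-2 (limma, adjusted p = 0.00979 and 0.0116). All 3 differed between the siRNAs, where 7.06% of all genes were called. The differences were 2.76, 2.03 and 1.98 for Cxcl10, Isg15 and Ccl5 (limma, adjusted p = 0.000855, 0.00228 and 0.00167). Ifit1 was not above background on any array. The interferon gene Ifnb1 was above background on 1 array, that of siTARBP2-1, with a raw signal of 87.0 (detection p 0.01) against 65.3 to 70.0 on the other 4 arrays. A probe above background on 1 array was not tested, so Ifnb1 has no p-value here. These genes also answer interferon and cytosolic RNA sensors, and what part Tlr3 had in their levels was not tested.

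**Figure D3:**
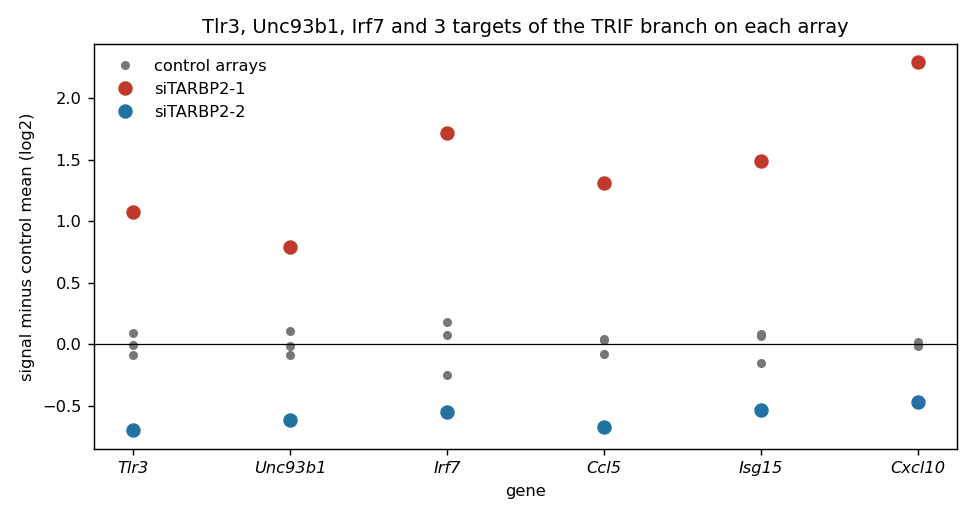
Log2 signal minus the control mean of Tlr3, Unc93b1, Irf7, Ccl5, Isg15 and Cxcl10 on each of the 5 arrays, with control arrays in grey. For all 6 genes siTARBP2-1 (red, 0.79 to 2.29) is the highest array and siTARBP2-2 (blue, -0.70 to -0.47) the lowest. The 6 genes were picked with their values known, so their shared order describes this choice only. Irf5, Cxcl1, Icam1 and Ikbke, also called with siTARBP2-1, are not drawn, and siTARBP2-2 was not their lowest array.

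Among the kinases and factors that carry the signal, the interferon-inducible kinase Ikbke rose 1.46-fold with siTARBP2-1 (limma, adjusted p = 0.0307), with a log2 difference of 0.00 with siTARBP2-2. Its call ended without siControl-2 (limma, adjusted p = 0.104), without siControl-3 (0.0579) and with median scaling (0.0741), and without background correction the log2 difference was 0.34. Irf7, the regulator of type I interferon genes, rose 3.28-fold with siTARBP2-1 (limma, adjusted p = 0.00371) and had a log2 difference of -0.55 with siTARBP2-2 (limma, adjusted p = 0.13, or 0.0456 and called without background correction), and the siRNAs differed by 2.27 (limma, adjusted p = 0.00386). Irf5, which MyD88 activates, rose with both siRNAs, 1.88-fold with siTARBP2-1 (limma, adjusted p = 0.0123) and 1.73-fold with siTARBP2-2 (limma, adjusted p = 0.0336). The siTARBP2-2 call on Irf5 ended without siControl-2 (limma, adjusted p = 0.073) and with no filter (0.0686). The control arrays read 89.8 to 100.1 for this probe in raw signal, close to background, and without background correction the log2 differences were 0.47 with siTARBP2-1 and 0.40 with siTARBP2-2. Irf3 and the NF-kB subunit Rela had log2 differences of -0.07 and 0.10 with siTARBP2-1 and of 0.05 and 0.08 with siTARBP2-2, none of them called by the brightest probe. The other Irf3 probes disagreed in sign with siTARBP2-1, at 0.09 and -0.38, and were not called either. The adaptor Tirap, the ligase Traf6 and the kinase Map3k7 (TAK1) had log2 differences of -0.09, 0.11 and 0.01 with siTARBP2-1 and of 0.00, -0.17 and 0.00 with siTARBP2-2, and none was called.

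Early targets of the MyD88 branch, also listed with earlier results known, showed 2 calls of 7 with siTARBP2-1, beside 7.65% of all genes. The neutrophil chemokine Cxcl1 rose 1.68-fold (limma, adjusted p = 0.0246) and the adhesion molecule Icam1 1.42-fold (limma, adjusted p = 0.0477). With siTARBP2-2 Cxcl1 had a log2 difference of 0.59 and Icam1 of 0.44, and neither was called (limma, adjusted p = 0.0653 and 0.0845), although Cxcl1 was called without background correction (0.00911). The other 5 were not called with siTARBP2-1, with log2 differences of 0.50 for the NF-kB regulator Nfkbiz (limma, adjusted p = 0.0586), 0.29 for the chemokine Ccl2, 0.22 for the cytokine Il6, 0.12 for the cyclooxygenase Ptgs2 and -0.22 for the inhibitor Nfkbia. The Cxcl1 call ended without siControl-2 (limma, adjusted p = 0.0809) and with no filter (0.0568), and the Icam1 call ended when any 1 control was left out (0.056 to 0.151), when dim probes were kept (0.0632) and under median scaling (0.115). Without background correction the log2 difference of Icam1 with siTARBP2-1 was 0.31. Of the negative regulators, the deubiquitinase Cyld had a log2 difference of -0.47 with siTARBP2-1 and Tnfaip3 one of 0.51 with siTARBP2-2. The interleukin-1 receptor Il1r1, which shares MyD88, had -0.60 with siTARBP2-1, and none of these differences was called. The Il1r1 probe was not above background on the siTARBP2-1 array (raw signal 75.4, detection p 0.148), so the size of its difference is uncertain.

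**Figure D4:**
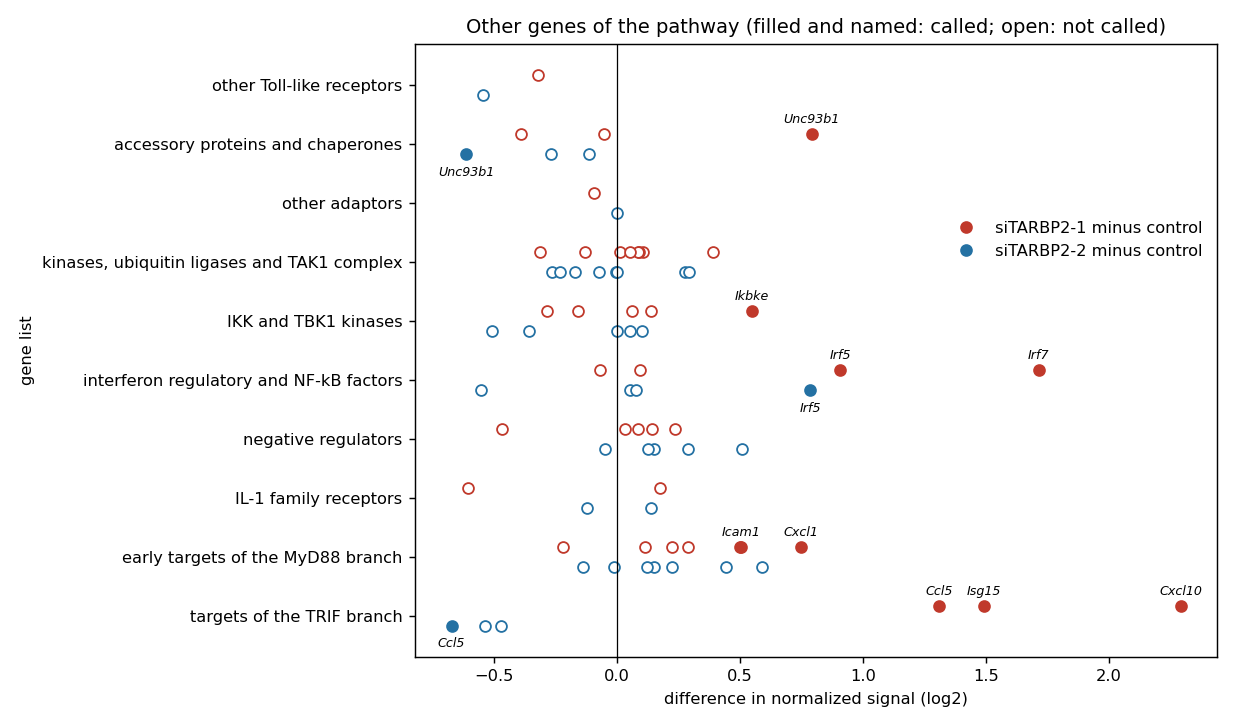
Log2 difference from the control mean of the 39 other pathway genes above background, by list, with siTARBP2-1 (red) and siTARBP2-2 (blue). Filled, named points were called and open points were not. The lists were drawn up with earlier results of these data known. The 9 genes called with siTARBP2-1 all lie above 0, up to 2.29 for Cxcl10, and with siTARBP2-2 Unc93b1 and Ccl5 lie below 0 and Irf5 above it.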

How the data were processed

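Signals of 5 Illumina BeadChips were used, 2 with TARBP2 siRNAs and 3 with control siRNAs. The deposited non-normalized table gives a linear intensity and a detection p-value for each of 25697 probes; the submitters' processing notes name lumi, with no version. The detection p-values deposited beside siTARBP2-2 did not follow its signals (Spearman correlation 0.000598, against -0.961 to -0.967 elsewhere); each was replaced by the mean p that the other 4 arrays give a probe of equal rank. The deposited series matrix holds quantile normalized intensities, an alternative here. The authors' deposited table holds log2 fold changes and a score that marks higher accessions, per the file headers.

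Background correction and quantile normalization used the neqc function (offset 16) of limma, version 3.58.1, under R version 4.3.3. The 13124 probes detected (p under 0.05) by 2 or more arrays were kept. Array medians ran from 79.0 to 81.9 and probes above background from 12445 to 13051; the number of arrays limits the precision. Genes were named through the platform annotation, which matched RefSeq symbols with 0 changes, and each is represented by its brightest kept probe; all member probes were examined. limma's lmFit and eBayes (two-sided) compared both siRNAs with control, and a second fit gave each siRNA its own coefficient, where the spread comes from the 3 controls and each lone array is assumed to vary like them. Both siRNA comparisons share these controls. P-values were adjusted over all kept probes by the Benjamini-Hochberg method. Code was tested on simulated data. The members and lists were chosen with earlier results of these data known. Named were all members, every pathway gene called against control, and as likeness the 3 genes nearest in Euclidean distance over the 5 arrays to each member whose log2 range is over 0.5; further genes were named after their values were seen. Motifs were searched in the 250 bases before RefSeq gene starts, for the 6 of the 9 genes that had a promoter entry.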

Additional observations from a re-analysis of the deposited data

Results flagged for a closer look

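3 of the 8 measured genes differed between the TARBP2 siRNAs in the test of that difference by limma, beside 7.06% of all genes. Tlr3 differed by 1.78 on the log2 scale, siTARBP2-1 minus siTARBP2-2, with the siTARBP2-1 array above and the siTARBP2-2 array below all 3 controls. Irak1 differed by -1.23, with siTARBP2-1 below and siTARBP2-2 just above the controls. Cd14 differed by -0.79, with siTARBP2-1 below and siTARBP2-2 above the controls. Without background correction the differences between the siRNAs were 1.15 for Tlr3, -0.64 for Irak1 and -0.65 for Cd14. Tarbp2 itself was at 28.7% of control with siTARBP2-1 and at 20.4% with siTARBP2-2 by probe ILMN_2939990. By probe ILMN_2649955 it was at 37.6% with siTARBP2-1 and at 20.9% with siTARBP2-2. Whether this gap between the siRNAs has a part in the differences was not tested.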

How the results depend on the processing

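Under 14 alternatives, every called difference of Tlr3, Irak1, Cd14 and Myd88 against control or between the siRNAs kept its sign wherever it could be fitted. Tlr3 and Irak1 with siTARBP2-1 against control were called under all 12 alternatives that could be run, with limma adjusted p-values of 0.000238 to 0.0225 and 0.000491 to 0.0254. Myd88 with siTARBP2-1 was called under 8 of 12 (0.00505 to 0.149). Tlr3 with siTARBP2-2 was called under 9 of 12 (0.0137 to 0.114). Cd14 with siTARBP2-1, not called in the report, was called under 5 of 12 (0.0211 to 0.137). Between the siRNAs Tlr3 and Irak1 were called under all 11 alternatives and Cd14 under 10. The count of called members with siTARBP2-2 was 0 with no filter. With 1 array left out that count ran from 0 to 1 for siTARBP2-2, and the count for both siRNAs together ran from 0 to 3, where leaving out an siRNA gives the count of the other. The number of all genes called with siTARBP2-1 (683) was 1220 with no background correction, 1190 with an offset of 50, 435 with no filter and 1221 with series matrix values; with siTARBP2-2 (381) it was 955, 909, 83 and 957, and between the siRNAs (630) 1260, 1223, 381 and 1248. With 1 array left out these counts ran from 252 to 799, from 57 to 501 and from 262 to 930, each lowest without siControl-2. Over both siRNAs the count of 1 gene became 11 with median scaling, 0 with no filter, 2 for probes detected on all 5 arrays, 0 with the mean of all kept probes, and 0 to 682 with 1 array left out. The replicate number as a block gave 0 called genes by limma over both siRNAs, and the same numbers mark no stated pairing. Over kept probes, siTARBP2-1 minus siTARBP2-2 and siControl-1 minus siControl-2 had a correlation of -0.0444. The former also holds the difference between the siRNAs, and siControl-3 is in neither. Whether the arrays are paired cannot be judged from this value. Irak1, Ticam1, Tlr3, Irf5, Icam1 and Ikbke lie close enough to background that at least 1 of their differences was over 1.5 times smaller without background correction.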

Other observations

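As a description over 5 arrays, without a test, the genes nearest to Tlr3 in Euclidean distance between centred log2 profiles, out of 8927, were the interferon-induced Oasl1 (0.26), the chemokine Ccl5 (0.26) and Apol9b (0.29). The nearest to Irak1 was Timp3 (0.07), an inhibitor of metalloproteinases, followed by Add3 (0.11) and Cript (0.14). The nearest to Cd14 were Foxd1, Aptx and Rnf168 (0.08 to 0.09), and to Myd88 Pradc1, Clba1 and Wipi2 (0.02 to 0.06). Profiles of 5 points from arrays that share 1 normalization are often close, and nothing on shared function or control follows from them.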
